A study of Mus musculus with 12 samples.

Results

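The genes encoding mitochondrial ribosomal proteins were followed in HT22 cells, an immortalized mouse hippocampal line, after knockdown of Ncoa4, after iron chelation, and after both. They were chosen by name as genes whose symbol begins with Mrpl or Mrps followed by a digit. Of the 24343 genes with a unique name, 77 carried such a symbol, 48 of them Mrpl and 29 Mrps. All 77 reached an FPKM (a fragment count divided by transcript length and by the total of mapped fragments) of 0.5 in all 12 libraries, so the filter of 0.5 in at least 3 libraries removed none of them. They were 77 of the 11924 genes tested. No member lay near that filter, since the lowest value of any member in any library was 2.51, for Mrpl17.

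Mitochondria carry their own ribosome, which translates the few respiratory chain subunits encoded by the mitochondrial genome. Its RNA is made in the organelle, but all of its proteins are encoded in the nucleus, translated in the cytosol and imported. Mrps genes encode proteins of the small subunit, which decodes the messenger RNA, and Mrpl genes encode proteins of the large subunit, which forms the peptide bond. Some of these proteins have bacterial counterparts and others were added in the mitochondrial lineage. In structures of the mammalian particle, some of its proteins hold iron-sulfur clusters, and respiratory complexes built from its products hold iron as well.

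Each of 4 groups held 3 biological replicates. The siControl cells received a control siRNA and the siNCOA4 cells an siRNA against Ncoa4, which encodes the receptor that delivers ferritin to autophagy, and both were kept at normal iron. The siControl+DFO and siNCOA4+DFO cells received the same siRNAs and deferoxamine (DFO), an iron chelator, at 100 µM for 24 h. The knockdown was transient and left some transcript behind, and all groups came from a single cell line. The paper describes a single siRNA against Ncoa4. An effect of NCOA4 loss and an effect of that siRNA on other transcripts cannot be told apart in this design. The questions were how the members responded to loss of NCOA4, to low iron and to the combination.

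Values of Ncoa4 itself were 6.02 to 6.46 FPKM for siControl and 0.770 to 0.952 for siNCOA4. Under DFO they were 7.52 to 8.70 without and 0.850 to 1.57 with the siRNA against it, so the knockdown was seen in all 6 siNCOA4 libraries. Of 10 neuron markers, 3 (Tubb3, Syn1 and Eno2) were at 0.5 FPKM or more in every library, while the other 7 were below 0.5 in every siControl library and 5 of these (Rbfox3, Map2, Nefm, Snap25 and Dcx) were listed at 0 there. The summed neuron markers rose from 16.9 to 19.3 FPKM in siControl to 38.3 to 41.5 in siControl+DFO, mostly through Eno2, whose mean went from 4.63 to 21.7. Fibroblast markers (4 of 5 at 0.5 or more in all libraries, led by Col1a2) summed to 1556 to 1865 FPKM in siControl, 925 to 1171 in siNCOA4, 395 to 525 in siControl+DFO and 464 to 601 in siNCOA4+DFO. Of the 5 astrocyte markers only Slc1a3 was at 0.5 or more throughout, and their sum went from 36.4 to 46.0 in siControl to 3.18 to 5.42 in siControl+DFO. The 5 microglia markers, with P2ry12 at 0, went from a sum of 10.0 to 11.9 to a sum of 1.04 to 1.80. Oligodendrocyte markers, with Mag and Olig2 at 0, stayed at or below 1.47 FPKM in sum. These lists moved with DFO and partly with siNCOA4, and their part in the results for the mitoribosomal genes was not tested. All libraries came from a single cell line, so the lists were not read as counts of cell types. A change in a share of the cells and a change of RNA per cell cannot be told apart in such bulk libraries.

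Levels of the members in siControl spanned 26.1-fold. Mrpl18, the counterpart of the bacterial protein that binds 5S ribosomal RNA, was highest with 127 ± 14.5 FPKM (mean ± SD, n = 3). Mrpl52 followed with 114 ± 24.9, and Mrpl12 with 104 ± 14.9. Mrpl12 encodes the stalk protein that contacts translation factors and also binds the mitochondrial RNA polymerase. The highest small subunit genes were Mrps6 with 93.7 ± 9.05 and Mrps15 with 86.3 ± 6.26 FPKM. The lowest were Mrpl17 with 4.88 ± 0.797, Mrpl57 with 6.71 ± 1.11, Mrpl19 with 7.64 ± 0.604, Mrpl11 with 7.91 ± 1.70 and Mrps12 with 8.56 ± 3.82 FPKM. Mrps12 encodes the counterpart of the bacterial decoding-centre protein S12.

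**Figure D1:**
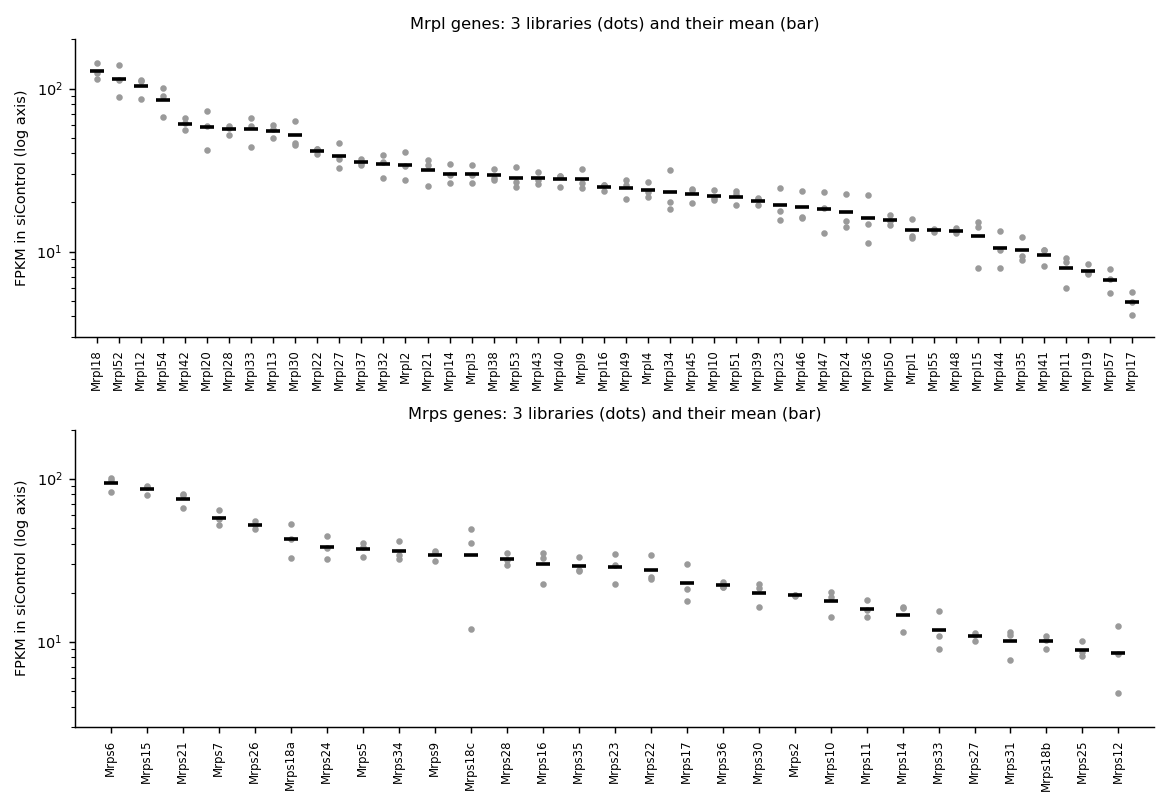
FPKM of each Mrpl gene (upper panel) and Mrps gene (lower panel) in the 3 siControl libraries, on a log axis, ordered by mean. Dots are libraries and bars are means, which run from 127 for Mrpl18 down to 4.88 for Mrpl17; the dot of Mrps18c far below the others of that gene is siControl replicate 1.

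Summed over the 77 members, FPKM was 2510 ± 295 in siControl, 2521 ± 167 in siNCOA4, 2066 ± 71.7 in siControl+DFO and 1968 ± 88.1 in siNCOA4+DFO (mean ± SD, n = 3 each). The 6 libraries with DFO lay between 1868 and 2121, below all 6 without DFO, which lay between 2179 and 2743. The lowest of the latter was siControl replicate 1 (2179, against 2608 and 2743 in its group), which was also low for cytosolic ribosomal protein genes (37929 against 51060 and 51102) and for oxidative phosphorylation genes (7576 against 9763 and 9988). Without that library the siControl sum was 2676. By correlation over all genes tested, the library least like its own group was siNCOA4+DFO replicate 3, at 0.926 and 0.934. Other pairs within groups, those of siControl replicate 1 among them, lay between 0.947 and 0.955. Its member sum was also the lowest, siNCOA4+DFO replicate 3 being at 1868. The members made up between 0.347 and 0.469% of all FPKM in libraries without DFO and between 0.261 and 0.309% in libraries with it. The sum of all FPKM was itself higher with DFO, between 676428 and 737313 against between 565558 and 627826 without it.

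Promoter sequences are shown for members that lead the comparisons, so that their sequences can be read beside their values. Mrpl41, Mrps21 and Mrpl42 were among the 5 largest falls with DFO, Mrpl12 was among the 3 most abundant members, and Mrpl37 was lower with siNCOA4. Each run holds the 250 bases before and the 50 bases after the annotated start, 5′ to 3′ on the strand of the gene, from RefSeq on GRCm38.p6. Capitals mark matches to 4 motifs searched on both strands: NRF1 (GCGCA and GCGC with any base between them), ETS (CCGGAAG), YY1 (AAGATGGCG) and E-box (CACGTG). The runs lie at chr2:24975049-24975348, minus strand (Mrpl41), at chr3:95871465-95871764, minus strand (Mrps21), at chr10:95501900-95502199, minus strand (Mrpl42), at chr11:120484387-120484686, plus strand (Mrpl12) and at chr4:107066817-107067116, minus strand (Mrpl37).
Mrpl41: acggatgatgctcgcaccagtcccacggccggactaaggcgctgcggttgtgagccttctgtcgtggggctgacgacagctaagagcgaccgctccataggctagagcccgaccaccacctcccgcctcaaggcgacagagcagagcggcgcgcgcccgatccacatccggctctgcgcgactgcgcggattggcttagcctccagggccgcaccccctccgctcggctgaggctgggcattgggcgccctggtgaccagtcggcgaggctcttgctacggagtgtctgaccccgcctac
Mrps21: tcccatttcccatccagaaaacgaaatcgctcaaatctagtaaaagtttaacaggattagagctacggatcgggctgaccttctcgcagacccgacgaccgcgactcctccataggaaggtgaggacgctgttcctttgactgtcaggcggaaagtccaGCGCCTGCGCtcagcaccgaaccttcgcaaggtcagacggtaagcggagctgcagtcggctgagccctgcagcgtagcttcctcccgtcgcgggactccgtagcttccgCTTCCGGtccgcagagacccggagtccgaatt
Mrpl42: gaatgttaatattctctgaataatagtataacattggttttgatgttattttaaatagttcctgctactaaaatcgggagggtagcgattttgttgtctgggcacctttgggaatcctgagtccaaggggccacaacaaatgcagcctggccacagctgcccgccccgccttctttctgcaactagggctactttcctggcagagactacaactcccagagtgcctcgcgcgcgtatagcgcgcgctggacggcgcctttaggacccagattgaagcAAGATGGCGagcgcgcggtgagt
Mrpl12: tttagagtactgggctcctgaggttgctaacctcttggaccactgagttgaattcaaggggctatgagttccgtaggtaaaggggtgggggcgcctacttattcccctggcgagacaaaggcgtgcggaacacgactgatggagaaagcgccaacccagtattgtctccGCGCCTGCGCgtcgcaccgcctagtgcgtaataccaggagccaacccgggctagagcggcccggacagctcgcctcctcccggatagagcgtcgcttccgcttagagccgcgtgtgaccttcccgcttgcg
Mrpl37: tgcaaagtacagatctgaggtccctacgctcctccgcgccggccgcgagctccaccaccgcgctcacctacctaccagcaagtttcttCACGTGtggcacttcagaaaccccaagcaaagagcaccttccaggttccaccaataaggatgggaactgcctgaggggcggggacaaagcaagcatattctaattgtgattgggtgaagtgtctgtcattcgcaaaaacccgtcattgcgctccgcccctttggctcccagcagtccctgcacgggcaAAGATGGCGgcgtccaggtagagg

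The Mrps21 run held an NRF1 match and an ETS match, the Mrpl42 run a YY1 match just after the start, the Mrpl12 run an NRF1 match, and the Mrpl37 run an E-box and a YY1 match, while the Mrpl41 run held none of the 4. RefSeq promoters were matched for 68 of the 77 members. An ETS match was found in 35.3% of the 68, against 19.1% of the promoters of 8928 other tested genes and 9.12% of all 27025 promoters. NRF1 matches stood in 19.1% of the members' promoters (11.2% of other tested genes, 4.78% of all), YY1 matches in 11.8% (3.43%, 1.49%) and E-boxes in 7.35% (10.6%, 7.24%). A match is a string of letters and no record of binding. Of the 23 matched members that fell with DFO in siControl cells, 5 (21.7%) held a YY1 match and 8 (34.8%) an ETS match, against 3 (6.67%) and 16 (35.6%) of the other 45.

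DFO lowered members in both subunits. In siControl+DFO relative to siControl, 28 of the 77 members fell at an adjusted p below 0.05 (36.4%) and 2 rose (2.6%). Over all genes tested, 25.7% fell and 27.7% rose, so the members that passed were nearly all on the lower side, whereas the whole table was divided almost evenly. The fitted log2 difference was below 0 for 58 of the 77, with a median of -0.25 over the members and -0.01 over all genes tested. The median was -0.19 for Mrpl and -0.30 for Mrps genes. This order was not kept: with DFO in siNCOA4 cells the medians were -0.37 for Mrpl and -0.28 for Mrps. Under the combination, relative to siControl, they were -0.36 and -0.30. In 31 members (40.3%) all 3 siControl+DFO libraries lay below all 3 siControl libraries, a pattern shown by 29.6% of all genes tested. In 5 members (6.49%; Mrpl1, Mrpl9, Mrps18b, Mrps26 and Mrps31) they lay above all 3, a side not counted over all genes tested. Of these, only Mrpl1 and Mrpl9 passed the adjusted threshold. The median over the members with DFO in siControl cells moved to -0.34 without siControl replicate 1.

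Among the 29 large subunit genes with a bacterial counterpart, 10 fell (34.5%, against the 25.7% of all genes tested) and 2 rose. Mrpl36 and Mrpl34 encode small proteins of the large subunit with bacterial namesakes. Mrpl36 was at 11.2, 14.7 and 22.2 FPKM in siControl and at 5.73, 8.35 and 8.09 in siControl+DFO. Its groups did not overlap, and it fell by 1.07 on the log2 scale (SE 0.25, limma adjusted p = 0.00348). Mrpl34 was at 18.3, 31.5 and 20.2 in siControl and at 9.92, 11.6 and 12.2 in siControl+DFO. It was lower in every treated library and fell by 1.01 (SE 0.23, limma adjusted p = 0.00253). Mrpl18, the most abundant member, was at 114, 124 and 143 FPKM in siControl and at 64.6, 71.1 and 68.0 with DFO, with a wide gap between the groups. Its log2 difference was -0.90 (SE 0.10, limma adjusted p = 7.76e-06). Mrpl12 was at 86.6, 113 and 111 in siControl and at 79.7, 74.0 and 52.3 with DFO, so that its groups were separate but close. It fell by 0.61 (SE 0.15, limma adjusted p = 0.0038).

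Other large subunit genes of this class that fell were Mrpl19, Mrpl11, Mrpl17, Mrpl28, Mrpl2 and Mrpl3, by between 0.83 (Mrpl19) and 0.25 (Mrpl3) on the log2 scale. The calls of Mrpl11 and Mrpl17 were each lost in 3 of the 12 fits that left out a library, at adjusted p of up to 0.0707 and 0.0924 without siControl+DFO replicate 2. The call of Mrpl3 was lost in 9 of these 12 fits, at adjusted p of up to 0.203 without siControl replicate 2, and in 3 of the 9 other alternatives, at up to 0.0757 with the compared groups alone. The 2 that rose were Mrpl9 and Mrpl1, and Mrpl1 encodes the protein of the stalk next to the site where used transfer RNA leaves. Mrpl9 was at 26.3, 24.7 and 32.1 FPKM in siControl and at 40.7, 38.0 and 33.2 with DFO. The groups were separate by a narrow margin, and the log2 difference was 0.43 (SE 0.11, limma adjusted p = 0.0044). Mrpl1 was at 12.1, 12.5 and 15.9 in siControl and at 17.1, 17.5 and 17.1 with DFO, a log2 difference of 0.36 (SE 0.13, limma adjusted p = 0.0344). This call of Mrpl1 was lost under quantile scaling (adjusted p = 0.14) and without siControl replicate 1 or 2 or any of the 3 siControl+DFO replicates, at adjusted p of up to 0.115.

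Of the 19 large subunit genes without a bacterial counterpart, 5 fell (26.3%, about the 25.7% of all genes tested) and none rose. The share was higher in the other DFO comparisons. With DFO in siNCOA4 cells 11 of the 19 fell (57.9%, against 19.6% of all genes tested) and 1 rose. Under the combination, relative to siControl, 10 fell (52.6%, against 23.4%). Mrpl41 is also known as a protein that binds the apoptosis regulator BCL2, and it showed the largest fall of all members. It was at 8.18, 10.2 and 10.2 FPKM in siControl and at 5.01, 3.57 and 3.54 in siControl+DFO. The groups were far apart, and it fell by 1.23 on the log2 scale (SE 0.18, limma adjusted p = 0.000131). Mrpl42 was at 55.8, 66.1 and 61.0 in siControl and at 33.4, 25.9 and 32.6 with DFO. It fell by 1.00 (SE 0.12, limma adjusted p = 2.02e-05), again with no overlap. Mrpl40, Mrpl51 and Mrpl38 fell by 0.64, 0.56 and 0.38 on the log2 scale. The call of Mrpl38 was lost in 6 of the 12 fits that left out a library, at adjusted p of up to 0.144 without siControl+DFO replicate 1, and in 2 of the 9 other alternatives, at up to 0.065.

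Of the 17 small subunit genes with a bacterial counterpart, 8 fell (47.1%), and of the 9 without one 4 fell (44.4%), with none rising in either class. Over all genes tested, 25.7% fell and 27.7% rose. Mrps21 was at 66.0, 80.4 and 79.0 FPKM in siControl and at 31.0, 32.5 and 34.1 with DFO. The 3 treated libraries lay close together and far below the controls, and the gene fell by 1.20 on the log2 scale (SE 0.19, limma adjusted p = 0.000204). Mrps34, a mitochondria-specific protein needed for a stable small subunit, was at 32.1, 34.1 and 41.7 in siControl and at 20.2, 21.3 and 17.0 with DFO, a fall of 0.88 (SE 0.15, limma adjusted p = 0.000432). The other small subunit genes that fell were Mrps11, Mrps2, Mrps35, Mrps27, Mrps24, Mrps16, Mrps15, Mrps9, Mrps28 and Mrps25. Mrps2, for example, was at 19.1, 19.4 and 19.4 in siControl and at 11.0, 14.5 and 10.8 with DFO. Mrps12 was at 4.85, 12.5 and 8.35 in siControl and at 4.03, 7.84 and 5.69 with DFO. Its groups overlapped and its log2 difference of -0.49 (SE 0.32, limma adjusted p = 0.222) did not pass.

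Mrps36, which is named as a small subunit protein but is now known as a component of the 2-oxoglutarate dehydrogenase complex, was at 21.8, 23.2 and 21.7 FPKM in siControl and at 12.5, 11.6 and 10.7 with DFO. It fell by 0.93 (SE 0.20, limma adjusted p = 0.00212). Mrps18a and Mrps30, named as small subunit proteins but placed in the large subunit, had log2 differences of 0.01 each and did not pass. With a fold change above 2 required as well, 4 members fell (Mrpl41, Mrps21, Mrpl36 and Mrpl34; 5.19%), against 7.76% of all genes tested, so that the changes of the members were mostly moderate in size. The proteins of the 5 largest falls (Mrpl41, Mrps21, Mrpl36, Mrpl34 and Mrpl42) have between 87 and 142 codons. The 28 members that fell had a median of 191.5 codons against 196 for the other 49. The 5 largest falls had between 92 and 206 codons with DFO in siNCOA4 cells and between 135 and 423 under the combination. Across the members, the log2 difference had a Pearson correlation of 0.32 with the number of exons and 0.29 with coding length (n = 77). It was 0.15 with transcript length and -0.24 with GC content. With DFO in siNCOA4 cells the correlation with coding length was 0.22. Exon number, coding length and transcript length were on the log2 scale and GC content in percent. These are descriptions across genes that share the same libraries.

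**Figure D2:**
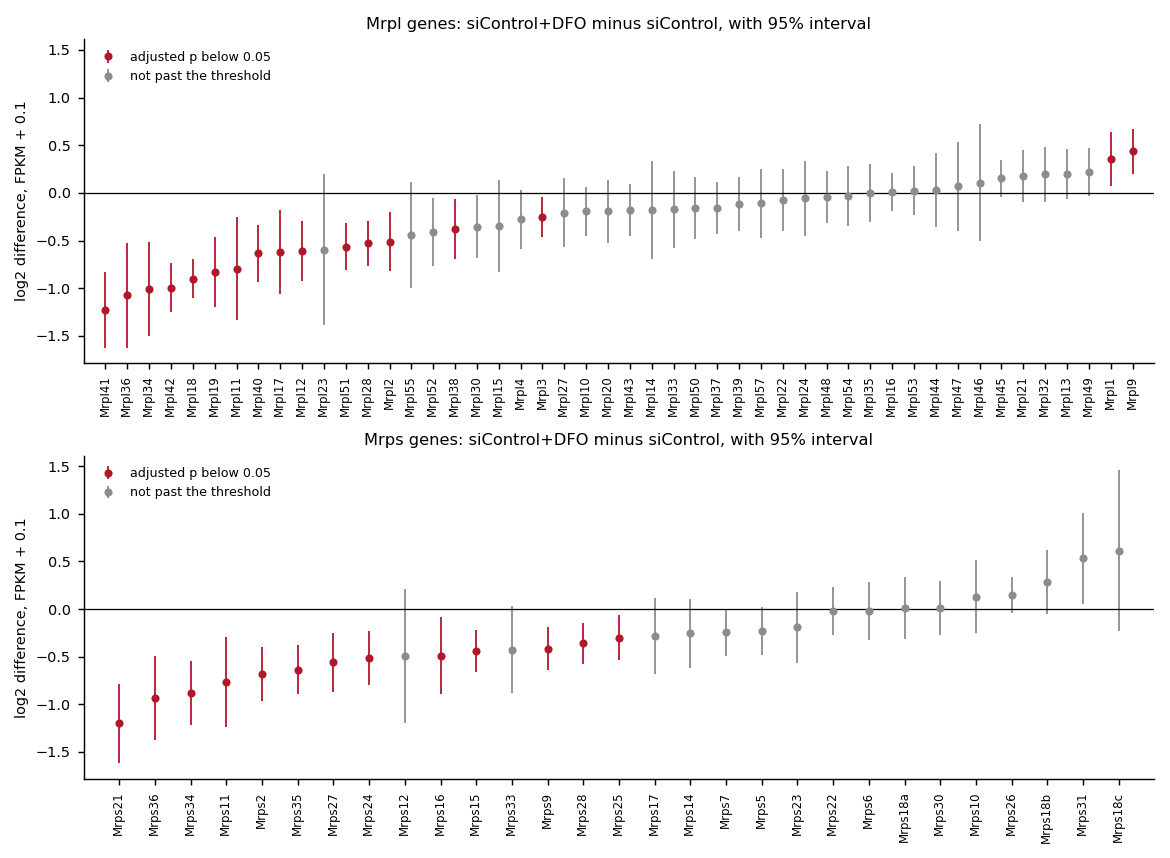
Log2 difference in FPKM + 0.1 between siControl+DFO and siControl for each Mrpl gene (upper panel) and Mrps gene (lower panel), ordered by size, with 95% intervals from limma. Red marks an adjusted p below 0.05, reached by 28 members on the lower side, with Mrpl41 at -1.23, and by 2 on the higher side, Mrpl1 and Mrpl9.

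In siNCOA4 cells, DFO gave a similar count. Between siNCOA4+DFO and siNCOA4, 31 members fell (40.3%) and 1 rose (1.3%), against 19.6% and 23.1% of all genes tested. The median log2 difference was -0.35 over the members and 0.00 over all genes tested, and 66 of the 77 differences were below 0. All 3 siNCOA4+DFO libraries lay below all 3 siNCOA4 libraries in 36 members (46.8%), against 25.1% of all genes tested. They lay above all 3 in 2 members (2.6%; Mrpl10 and Mrpl45). The number of calls fell from 32 to 21 without siNCOA4 replicate 2. Mrpl41 alone fell by more than 2-fold, 1.3% of the members against 3.83% of all genes tested. It was at 10.5, 8.29 and 11.0 FPKM in siNCOA4 and at 4.78, 4.90 and 3.56 in siNCOA4+DFO, again with a wide gap and a fall of 1.16 (SE 0.18, limma adjusted p = 0.000318).

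The next largest falls in siNCOA4 cells were in Mrpl18, Mrpl40, Mrpl12 and Mrpl34. Mrpl18 was at 130, 136 and 137 FPKM in siNCOA4 and at 67.8, 70.7 and 83.4 in siNCOA4+DFO, a fall of 0.87 (SE 0.10, limma adjusted p = 1.92e-05). Mrpl40 was at 27.8, 34.0 and 33.3 and at 20.7, 14.7 and 18.7, a fall of 0.82 (SE 0.14, limma adjusted p = 0.000432). Neither pair of groups overlapped. Mrpl12 was at 82.1, 93.3 and 94.98 in siNCOA4 and at 53.2, 50.8 and 52.6 in siNCOA4+DFO, with the DFO libraries nearly equal, and it fell by 0.78 (SE 0.15, limma adjusted p = 0.000946). Mrpl34 was at 18.5, 27.2 and 22.1 and at 17.1, 12.7 and 10.0, a narrower gap, and fell by 0.78 (SE 0.23, limma adjusted p = 0.015). The call of Mrpl34 was lost without siNCOA4 replicate 2 or siNCOA4+DFO replicate 3, at adjusted p of up to 0.0644. Mrpl45, which anchors the large subunit to the inner membrane, was the member that rose. It was at 18.5, 19.9 and 19.7 FPKM in siNCOA4 and at 24.6, 24.7 and 25.6 in siNCOA4+DFO, with a log2 difference of 0.36 (SE 0.09, limma adjusted p = 0.00568).

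**Figure D3:**
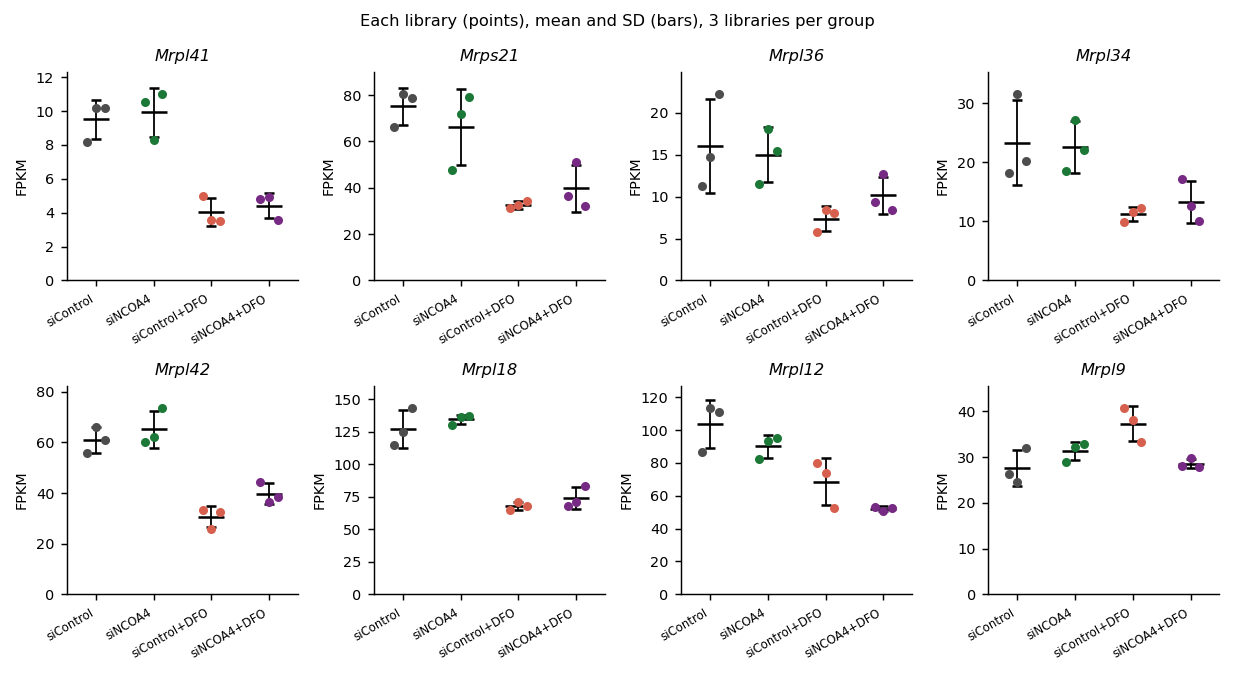
FPKM in each of the 12 libraries for 8 members, with the mean and SD of each group of 3. Mrpl41, Mrps21, Mrpl36, Mrpl34, Mrpl42 and Mrpl18 were lower in all 3 siControl+DFO libraries than in all 3 siControl libraries, Mrpl12 was lowest in siNCOA4+DFO (52.2 ± 1.27), and Mrpl9 was highest in siControl+DFO (37.3 ± 3.80).

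The DFO comparisons in siControl and in siNCOA4 cells compare groups that share no library, though both use a spread estimated over all 12 libraries. Of the members, 19 fell in both, 67.9% of the 28 that fell in siControl and 61.3% of the 31 that fell in siNCOA4. These were Mrpl2, Mrpl12, Mrpl17, Mrpl18, Mrpl28, Mrpl34, Mrpl40, Mrpl41, Mrpl42 and Mrpl51 in the large subunit group, Mrps2, Mrps16, Mrps21, Mrps24, Mrps27, Mrps28, Mrps34 and Mrps35 in the small subunit group, and Mrps36. Those that held in every fit of both comparisons were Mrpl12, Mrpl18, Mrpl40, Mrpl41, Mrpl42, Mrpl51, Mrps21, Mrps27, Mrps28, Mrps34 and Mrps35. In siNCOA4 cells the calls of Mrpl2 and Mrpl28 were each lost in 5 of the 12 fits that left out a library. Both were also lost in 3 of the 9 other alternatives. In all, 40 members fell in at least 1 of the comparisons and 34 passed in neither. Over all genes tested, 61.0% of those that fell in siControl and 79.9% of those that fell in siNCOA4 fell in both. The members that fell in both were 24.7% of all 77, against 15.7% of all genes tested, and those that passed in neither were 44.2%, against 39.3%. The sign of the difference was shared by 59 of the 77 (76.6%), against 82.4% of all genes tested. Across the members the log2 differences had a Pearson correlation of 0.66 and a Spearman correlation of 0.61, against 0.75 and 0.80 across all genes tested, given as a description over genes that share libraries within each comparison.

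**Figure D4:**
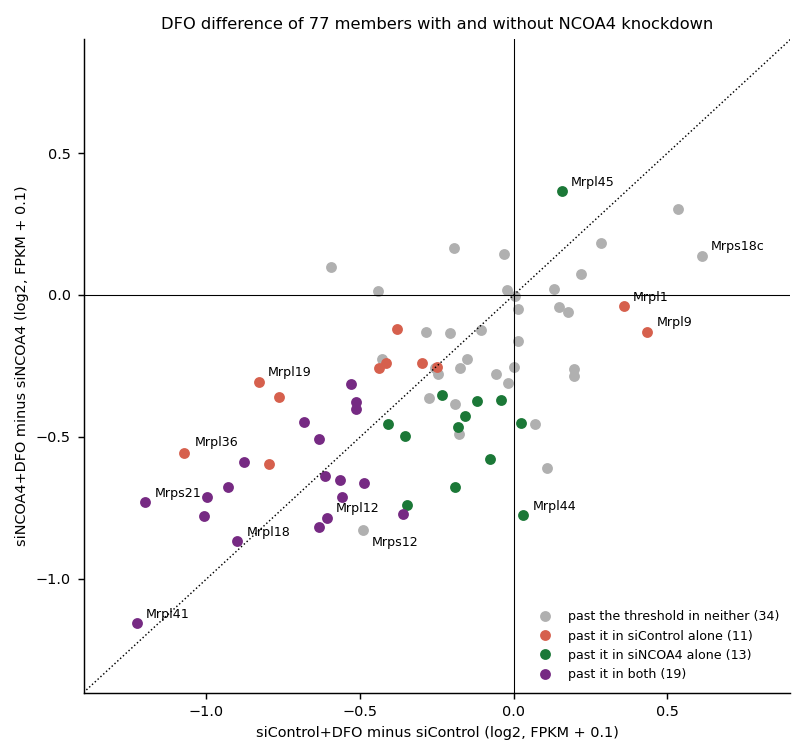
Log2 difference with DFO in siControl cells (x axis) against that in siNCOA4 cells (y axis) for the 77 members, on the scale of FPKM + 0.1, with the dotted line marking equal differences. Colour shows where the adjusted p was below 0.05, and 19 members passed in both, all below 0 on both axes, with Mrpl41 lowest.

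The test of whether the DFO response differed with knockdown, the interaction, called none of the 77 members, against 2.1% of all genes tested in either direction. At an unadjusted p below 0.05 there were 8 (10.4%, against 18.2% of all genes tested), namely Mrpl9, Mrpl13, Mrpl20, Mrpl22, Mrpl32, Mrpl44, Mrpl53 and Mrps28. The lowest adjusted p was 0.0749, for Mrpl9, whose siNCOA4+DFO libraries were at 28.1, 29.8 and 27.9 FPKM and siNCOA4 libraries at 29.0, 32.1 and 32.9. Its rise with DFO in siControl cells therefore had no equivalent in siNCOA4 cells, where the log2 difference was -0.13, but the difference between these responses did not pass (interaction -0.56, SE 0.15). Interaction terms ranged from -0.81 for Mrpl44, a protein with a fold like that of ribonuclease III, to 0.70 for Mrpl23. The half-width of the 95% interval, not adjusted for the number of genes, had a median of 0.45 on the log2 scale. It ran from 0.26 for Mrps26 to 1.19 for Mrps18c. For a typical member an interaction of up to the median half-width would not be separated from 0. A call at the adjusted threshold needed a larger one, so the lack of calls leaves moderate interactions undecided. Without siControl replicate 3, 1 member was called.

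Under the combination, 33 members were lower in siNCOA4+DFO than in siControl (42.9%) and none was higher, against 23.4% and 25.4% of all genes tested. At an unadjusted p below 0.05, 39 members (50.6%) differed in either direction, against 55.3% of all genes tested. The median log2 difference was -0.34 over the members and 0.01 over all genes tested. This comparison shares the siControl libraries with those of DFO and siNCOA4 alone and cannot be taken as separate evidence. Mrpl19 and Mrpl41 fell by more than 2-fold, 2.6% of the members against 5.93% of all genes tested. Mrpl19 was at 7.34, 7.25 and 8.34 FPKM in siControl and at 3.46, 3.19 and 3.41 in siNCOA4+DFO, a fall of 1.16 (SE 0.17, limma adjusted p = 0.000123). It was also lower with each treatment alone, at 3.66, 4.59 and 4.29 with siNCOA4 and at 5.33, 4.26 and 3.37 with DFO. Of the windows of 75 bases along its transcripts, 39.5% also occur in other genes, among them Gcfc2 on the opposite strand.

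Mrpl41 fell by 1.10 under the combination (SE 0.18, limma adjusted p = 0.000357), Mrpl12 by 0.98 (SE 0.15, limma adjusted p = 0.000139), Mrps34 by 0.96 (SE 0.15, limma adjusted p = 0.000241) and Mrpl37 by 0.95 (SE 0.13, limma adjusted p = 5.64e-05). For Mrpl12 the siNCOA4+DFO libraries lay below every library of the other 3 groups except siControl+DFO replicate 3. Mrps12 was at 3.29, 4.60 and 5.31 FPKM under the combination and overlapped with siControl replicate 1 at 4.85. Its log2 difference of -0.87 (SE 0.32, limma adjusted p = 0.0417) passed, but the call was lost without siControl replicate 2 or 3, siNCOA4 replicate 2, siControl+DFO replicate 3 or siNCOA4+DFO replicate 1 or 2, at adjusted p of up to 0.18, and in 3 of the 9 other alternatives, at up to 0.0763.

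At normal iron, knockdown of Ncoa4 changed few members. In siNCOA4 relative to siControl, 4 were lower (5.19%) and 1 was higher (1.3%), against 7.21% and 4.52% of all genes tested. The median log2 difference was 0.04 over the members and 0.00 over all genes tested. The number of calls ranged from 3 without siControl replicate 2, siNCOA4 replicate 2 or siNCOA4 replicate 3 to 8 without siControl replicate 1. Under quantile scaling 4 were lower and 2 higher. The 4 that were lower were Mrpl19, Mrpl37, Mrpl48 and Mrps15, and Mrpl53 was higher.

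Mrpl19 fell by 0.86 (SE 0.17, limma adjusted p = 0.00705), with the values given above and no overlap. Mrpl37, a large subunit protein without a bacterial counterpart, was at 37.0, 33.9 and 35.0 FPKM in siControl and at 17.8, 21.8 and 25.1 in siNCOA4. It fell by 0.72 (SE 0.13, limma adjusted p = 0.00343), with every knockdown library below every control. Mrpl48, of the same class, was at 13.4, 13.9 and 12.9 and at 9.67, 8.68 and 9.32, a fall of 0.54 (SE 0.13, limma adjusted p = 0.0175). Mrps15 was at 79.1, 90.7 and 89.1 and at 57.7, 60.8 and 71.0, a fall of 0.45 (SE 0.10, limma adjusted p = 0.0142). Neither overlapped. The call of Mrpl48 was lost without siControl replicate 2 or siNCOA4 replicate 2 or 3, and that of Mrps15 without siControl replicate 2 or siNCOA4 replicate 1 or 2, at adjusted p of up to 0.0693 and 0.0575.

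Mrpl53 was at 33.0, 26.7 and 24.9 FPKM in siControl and at 37.4, 35.7 and 46.6 in siNCOA4, a rise of 0.50 (SE 0.12, limma adjusted p = 0.0182). All of its 75-base windows (100%) also occur in Gm42688, an annotated gene that overlaps it on the same strand, so that the reads of these genes could not be told apart. This call was lost in a fit of the compared groups alone (adjusted p = 0.0849) and without siControl replicate 2 or 3 or siNCOA4 replicate 3, at adjusted p of up to 0.0723.

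Under DFO, knockdown lowered 4 members (5.19%) and raised 1 (1.3%), against 10.2% and 6.22% of all genes tested. The median log2 difference was -0.03 over the members and -0.01 over all genes tested. Mrpl37 was at 30.9, 33.4 and 30.9 FPKM in siControl+DFO and at 18.1, 21.0 and 16.0 in siNCOA4+DFO, a fall of 0.79 (SE 0.13, limma adjusted p = 0.00181). Mrpl48 was at 11.6, 13.1 and 14.6 and at 7.73, 7.86 and 5.91, a fall of 0.87 (SE 0.13, limma adjusted p = 0.00119). These 2 genes were thus lower with knockdown at both iron levels, 50% of the 4 that fell in each comparison, against 51.5% and 36.3% of the genes that fell over the whole table. No windows of Mrpl37 and 4.44% of those of Mrpl48, the latter with a pseudogene, are shared with other genes.

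DFO alone did not move Mrpl37 and Mrpl48 past the threshold in siControl cells, where their log2 differences were -0.15 (SE 0.13, limma adjusted p = 0.322) and -0.04 (SE 0.13, limma adjusted p = 0.8). The other calls under DFO were smaller. Mrpl9 and Mrps26 fell by 0.38 and 0.33, and Mrpl42 rose by 0.38 (limma adjusted p = 0.032, 0.0215 and 0.0473). Mrps26 was at 57.6, 57.0 and 57.9 FPKM in siControl+DFO and at 50.6, 45.6 and 41.3 in siNCOA4+DFO. The call of Mrpl9 was lost without siControl+DFO replicate 1 or 2 or any siNCOA4+DFO replicate, at adjusted p of up to 0.112, and under quantile scaling (0.114). That of Mrps26 was lost without any siControl+DFO replicate or siNCOA4+DFO replicate 2 or 3, at up to 0.0731, and under quantile scaling (0.106). That of Mrpl42 held in 2 of the 12 fits that left out a library, those without siControl replicate 1 or siNCOA4 replicate 3, and in 5 of the 9 other alternatives, with adjusted p of up to 0.171 without siControl+DFO replicate 2. The number of calls was 3 without siControl+DFO replicate 1 and 2 without siControl+DFO replicate 2, and 3 with the compared groups alone or without a trend in the moderation. Under quantile scaling 2 members were lower and 3 higher.

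**Figure D5:**
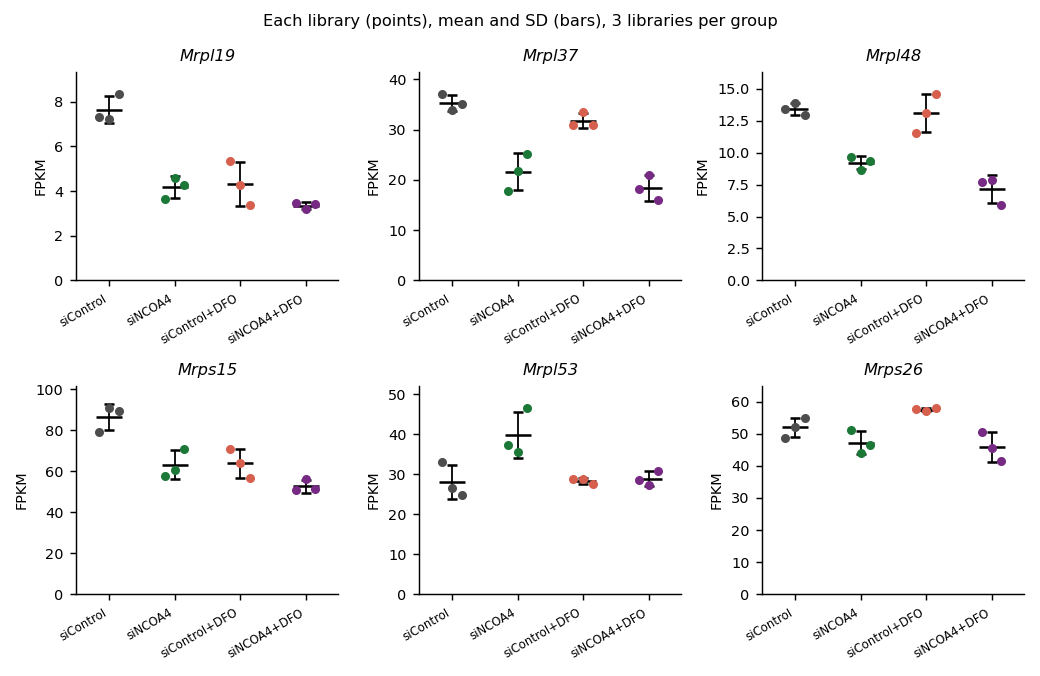
FPKM in each of the 12 libraries for 6 members that passed between knockdown and control cells at normal iron or under DFO, with the mean and SD of each group of 3. Mrpl37 and Mrpl48 are lower in all 6 siNCOA4 libraries than in all 6 siControl libraries, Mrpl19 is lower in every other group than in siControl, and Mrpl53 is highest in siNCOA4 (39.9 ± 5.86).

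Mrps6, Mrps16, Mrps18a, Mrps18c and Mrps25 encode the proteins that hold iron-sulfur clusters in structures of the mammalian mitoribosome, and Mrps18b is another copy of the Mrps18 family. With DFO, Mrps16 and Mrps25 fell in siControl cells, and the other 3 did not pass. Mrps16 was at 22.5, 32.5 and 34.8 FPKM in siControl and at 22.9, 23.3 and 17.2 in siControl+DFO, with overlap through siControl replicate 1. Its fall of 0.49 (SE 0.19, limma adjusted p = 0.0427) was lost without siControl replicate 2 or 3, siNCOA4 replicate 2 or 3, siControl+DFO replicate 1 or 3 or siNCOA4+DFO replicate 2, at adjusted p of up to 0.163, and in 4 of the 9 other alternatives, at up to 0.0699. Mrps25 was at 8.12, 8.63 and 10.0 and at 7.34, 6.99 and 7.32, a fall of 0.30 (SE 0.11, limma adjusted p = 0.0353), lost with the compared groups alone (adjusted p = 0.0746) and without siControl replicate 2 or 3 or any siControl+DFO replicate, at adjusted p of up to 0.15. Of its windows, 73.0% are shared with other genes, chiefly Nr2c2 on the opposite strand.

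Mrps6 did not pass with DFO in siControl cells (log2 difference -0.02, SE 0.14, limma adjusted p = 0.924) and was lower under the combination, at 74.7, 74.5 and 57.9 FPKM against 83.4, 97.5 and 100 in siControl (fall of 0.45, SE 0.14, limma adjusted p = 0.0196). That call was lost without siControl replicate 2 or 3 or siNCOA4+DFO replicate 3, at adjusted p of up to 0.0805. Of the windows of Mrps6, 30.05% are shared with other genes, among them Gm49711 and Slc5a3, which overlap it on the same strand. Mrps16 fell in siNCOA4 cells with DFO by 0.66 (SE 0.19, limma adjusted p = 0.0125), a call lost without siNCOA4+DFO replicate 3, and under the combination by 0.72 (SE 0.19, limma adjusted p = 0.00651). Mrps18a, Mrps18b and Mrps18c passed in none of the 6 comparisons. Mrps18c had the widest spread, at 11.9, 40.5 and 49.0 FPKM in siControl, and its log2 difference with DFO was 0.61 (SE 0.39, limma adjusted p = 0.204).

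Proteins of the mitoribosome whose genes carry other names mostly fell with DFO as well. Of 6 tested, 4 fell with DFO in siControl cells (66.7%, against 25.7% of all genes tested), 1 rose and 1 did not pass. Ict1, a release-factor relative built into the large subunit, had a mean of 47.4 FPKM in siControl and 25.9 in siControl+DFO (fall of 0.86, SE 0.14, limma adjusted p = 0.000248). Chchd1, a small subunit protein, went from 76.2 to 42.6, and Gadd45gip1, a large subunit protein, from 25.7 to 16.2, falls of 0.83 and 0.66. Aurkaip1 fell by 0.51, and Ptcd3 rose by 0.40 (SE 0.10, limma adjusted p = 0.0054). In siNCOA4 cells 4 of the 6 fell with DFO (66.7%, against 19.6% of all genes tested). Under the combination 5 fell (83.3%, against 23.4%). With siNCOA4 alone none passed the threshold, where 7.21% of all genes tested fell and 4.52% rose.

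Of 11 mitochondrial translation factors, 4 fell with DFO in siControl cells (36.4%, against 25.7% of all genes tested) and none rose. Mtfmt, which formylates the initiator methionyl-tRNA, went from a mean of 4.91 to 2.09 FPKM (fall of 1.24, SE 0.25, limma adjusted p = 0.0012). Tufm, the elongation factor that delivers aminoacyl-tRNA, went from 46.2 to 29.6 (fall of 0.64, SE 0.11, limma adjusted p = 0.000416). Tsfm, its exchange factor, fell by 0.55, and Gfm1, the translocase, by 0.34. Mtrf1, a release factor, had a log2 difference of -0.61 and did not pass (SE 0.31, limma adjusted p = 0.116). Of 27 factors for assembly and RNA modification of the mitoribosome, 4 fell (Mpv17l2, Ftsj2, Mrm1 and Ddx28; 14.8%, below the 25.7% of all genes tested) and 1 rose (Mterf3, by 0.70). Mpv17l2 went from 15.0 to 7.20 FPKM and fell by 1.04 (SE 0.24, limma adjusted p = 0.00288). Ftsj2, an rRNA methyltransferase, went from 4.91 to 2.51 and fell by 0.94, whereas Tfb1m, another one, had a log2 difference of -0.75 and did not pass (SE 0.39, limma adjusted p = 0.122).

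Of 11 transcription factors and coactivators known for nuclear genes of mitochondrial proteins, 4 rose with DFO in siControl cells (36.4%) and 3 fell (27.3%), against 27.7% and 25.7% of all genes tested. Myc, a general activator of growth genes, went from a mean of 17.9 to 222 FPKM (rise of 3.61, SE 0.17, limma adjusted p = 8.68e-09), and Gabpb1, a subunit of an ETS-family factor, from 11.1 to 45.7 (rise of 2.05, SE 0.17, limma adjusted p = 1.05e-06). Esrra and Yy1 rose by 1.30 and 0.77. Nrf1 went from 16.7 to 9.77 and fell by 0.77 (SE 0.17, limma adjusted p = 0.00265). The coactivators Ppargc1a and Ppargc1b fell by 1.38 and 1.48. These are transcript levels, and their part in the changes of the members was not tested.

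Beside 2 gene families close to the mitoribosome, the members lay between them in this comparison. Of 79 nuclear-encoded oxidative phosphorylation subunits, 42 fell with DFO in siControl cells (53.2%) and 3 rose, with a median log2 difference of -0.37. Of 80 cytosolic ribosomal protein genes, 10 fell (12.5%) and 1 rose, with a median of -0.12. Over all genes tested, 25.7% fell and 27.7% rose. In siNCOA4 cells 43 and 9 genes of these families fell (54.4% and 11.2%, against 19.6% of all genes tested). Their medians were -0.41 and -0.21, against -0.35 for the mitoribosomal genes. Under the combination, 38 and 30 fell (48.1% and 37.5%, against 23.4% of all genes tested), with medians of -0.34 and -0.31. The families were not compared by a test, and siControl replicate 1, which was low for all 3 families, enters the comparisons with siControl.

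Some members share sequence with other annotated genes, and how the deposited values divided such reads is not given in the sources used here. No 75-base window was shared for 35 of the 77 members, and under 10% were shared for 55. Exons of 23 members overlap an exon of a gene on the opposite strand and those of 5 overlap one on the same strand. Among the 55 members, 21 fell with DFO in siControl cells with a median log2 difference of -0.26, and among the other 22, 7 fell with a median of -0.19. In siNCOA4 cells the counts were 24 and 7, with medians of -0.37 and -0.30. Members with high sharing that are named above include Mrps34 (51.0% of windows, with Mapk8ip3), Mrpl23 (65.4%, with a pseudogene) and Mrps18b (60.5%). Mrps6 (30.05%), Mrpl22 (26.85%), Mrps36 (25.2%, among others with its pseudogenes) and Mrpl42 (12.5%) also shared more than 10%.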

How the data were processed

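RNA-seq of 12 HT22 libraries was analysed, 3 biological replicates in each of 4 groups, with groups and replicate numbers taken from the labels. The authors deposited 1 FPKM value per gene and library. The submitters' processing notes name Trimmomatic 0.33, FastQC, HISAT2 2.1.0, featureCounts, edgeR and the build mm10, and the libraries were made from total RNA with a stranded kit for low input. The annotation, and which tool made the FPKM, are not given in the sources used here. FPKM carries no depth, so the depth of each library is unknown and no counting interval was computed. Each table held 24347 entries; 4 with a shared name were left out, and 6929 of the other 24343 were at 0 in all libraries.

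Values were used without further scaling as log2(FPKM + 0.1), which understates changes of low genes. The 11924 genes that reached an FPKM of 0.5 in 3 or more libraries were fitted with limma 3.58.1 in R 4.3.3 as a means model over the 4 groups, with a mean-variance trend, 8 residual and 4.07 prior degrees of freedom, and Benjamini-Hochberg adjustment over all genes within each comparison. A count test was not used, since FPKM are not counts. A gene was called at an adjusted p below 0.05, and a second rule required a fold change above 2. The fit was also run on simulated data with independent noise for each gene and few genes changed. Many genes differed with DFO here, so that run does not give the error rate of these calls. With 3 libraries against 3, a two-sided exact permutation test cannot go below 0.1. P-values rest on the spread between replicates within groups, pooled over the 4 groups and moderated across genes.

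The members and gene lists were chosen with earlier results of these data known. Lists are described by counts and medians without a test. Named were Mrpl12, Mrps12, the iron-sulfur ligand proteins and the Mrps18 copies, the 5 highest and 5 lowest members in siControl, the 5 largest rises and falls called in each comparison, and in other lists the 3 largest differences; further names in the text belong to counts described there and were chosen after their values were seen. Transcript features and shared windows came from GENCODE M21 on GRCm38, which is the build mm10, and promoters from RefSeq on GRCm38.p6. Protein sequences were not used here. Python 3.11.15, numpy 2.4.6, pandas 2.3.3, scipy 1.17.1 and matplotlib 3.10.9 were used. Alternatives were pseudocounts of 1 and 0.01, no filter and a filter of 2, median-of-ratios and quantile scaling, a replicate block, a fit restricted to the compared groups, untrended moderation, leaving out each library, and, chosen after seeing the data, members with under 10% of shared windows and the siControl level without replicate 1.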

Additional observations from a re-analysis of the deposited data

How the results depend on the processing

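No call was reversed, and the counts and medians with DFO kept their direction throughout. The medians of all members were moved by less than the spread between replicates (SD 0.0956 on the log2 scale) except without siControl replicate 1. With each library left out in turn, there were 3 to 8 calls for siNCOA4, 23 to 34 for DFO in siControl cells, 24 to 34 for the combination, 21 to 35 for DFO in siNCOA4 cells, 2 to 7 for siNCOA4 under DFO and 0 to 1 for the interaction. The median difference with DFO in siControl cells ranged from -0.3447 to -0.1664, and that of the interaction from -0.1248 to 0.0372. The values without siControl replicate 1 were -0.3447 and 0.0372. The median for siNCOA4 ranged from -0.0477 to 0.129 and that for siNCOA4 under DFO from -0.0806 to -0.0137, both near 0. Under quantile scaling the latter was 0.0548. For siNCOA4 under DFO, the compared groups alone and moderation without a trend each gave 3 calls in place of 5. Quantile scaling gave 35 and 42 calls with DFO in siControl and siNCOA4 cells in place of 30 and 32. In members with a mean FPKM of at least 5, the correlation of the DFO difference with transcript length was 0.23 in place of 0.15 and with GC content -0.28 in place of -0.24. The causes were not tested. Calls that held in every fit numbered 2 of 5 for siNCOA4 (Mrpl19 and Mrpl37), 23 of 30 and 17 of 32 for DFO in siControl and siNCOA4 cells, 21 of 33 for the combination and 2 of 5 for siNCOA4 under DFO (Mrpl37 and Mrpl48).

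Replicate numbers are shared between groups, but deviations of same-numbered libraries from their group means had correlations of only -0.127 to 0.116. The labels do not say whether same-numbered samples were prepared together, and these correlations cannot decide it. The main fit did not pair them. With the replicate number as a block, 5 calls were made for siNCOA4, 30 for DFO in siControl cells, 34 for the combination (33 lower and 1 higher), 34 for DFO in siNCOA4 cells, 4 for siNCOA4 under DFO and 0 for the interaction. Since the files hold no depth, how far low expression limits a value such as that of Mrpl17 could not be assessed. Marker genes listed at 0 are given as listed, with no limit of detection.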
